A study of Mus musculus with 4 samples.

Results

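Cholesterol synthesis, uptake and sensing was examined through 31 genes, picked by gene symbol as known members of the pathway and all found in the deposited table of 24493 genes. They comprise 20 enzymes that lead from acetyl-CoA to cholesterol or branch from that route, 4 genes of the sterol sensor, 5 genes of uptake and intracellular transport and 2 genes of esterification. RNA sequencing had been run on 4 cultures of C57BL/6 mouse liver cells. Hep_3D was hepatocytes in 3D culture, and Bil_2D was biliary cells derived from hepatocytes and grown in 2D culture. Each state had 1 library from clone 15C7 (replicate 1) and 1 from clone 19H5 (replicate 2), so 4 libraries in all. The cells of both states came originally from hepatocytes, and no treatment is named for either. Cell state and culture format changed together, so they cannot be told apart. No label ties the libraries to separate animals or experiments, and the p-values reflect the spread among these cultures alone, some of which may be technical.

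Cells make cholesterol from acetyl-CoA through mevalonate and isoprenoids to squalene, which is closed into lanosterol and trimmed to cholesterol. SREBP2, the protein of Srebf2, switches on most genes of this route after Scap escorts it from the endoplasmic reticulum, and the Insig proteins hold Scap back when sterol is plentiful. Surplus cholesterol is stored as esters by the Soat enzymes, and cholesterol arriving in lysosomes leaves through Npc2 and Npc1. Hepatocytes carry much of this traffic, since they also secrete cholesterol in lipoproteins and convert it to bile acids.

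Values were TPM, in which each gene's length-corrected share of a library is scaled to a total of 1000000, so that no sequencing depth is kept. The number of genes reaching 1 TPM was 11747 and 11247 in the Hep_3D libraries, against 12266 and 11907 in Bil_2D. The 8 hepatocyte markers summed to 47338 and 47513 TPM in Hep_3D, against 1693 and 281 TPM in Bil_2D. The 9 biliary markers summed to 13154 and 9452 TPM in Hep_3D, against 5815 and 9357 TPM in Bil_2D. Spp1 gave most of that sum in each library and was the 1 biliary marker higher in Hep_3D within both clones. It had 13093 and 9284 TPM in Hep_3D, against 4176 and 6092 TPM in Bil_2D. Krt19 stood at 1.12 and 15.9 TPM in Hep_3D, against 752 and 1615 TPM in Bil_2D. Epcam reached at most 2.59 TPM and Cftr at most 0.0797 TPM in any library, so those biliary markers were near absent from both states. The 6 endothelial markers summed to at most 0.371 TPM. The 6 macrophage and leukocyte markers summed to 2.46 and 2.8 TPM in Hep_3D, against 6.09 and 13.3 TPM in Bil_2D. Cd68 gave 4.5 and 11.7 TPM of the Bil_2D sums. Csf1r stood at 1.69 and 0.984 TPM in Hep_3D, against 1.38 and 1.61 TPM in Bil_2D. The 8 fibroblast and stellate markers summed to 179.6 and 3.47 TPM in Hep_3D, against 3.8 and 1.15 TPM in Bil_2D, with Dcn giving 178 TPM of the first value. The part of these marker differences in the results was not tested.

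State differences were tested as Hep_3D over Bil_2D in log2(TPM + 1) with limma, over the 12336 genes that reached 1 TPM in at least 2 libraries, and called at an adjusted p under 0.05. "Rose" and "fell" are used for what passed. The median gene stood at -0.73 on the TPM scale. The top 50 genes of each library held 46.6% and 48.4% of TPM in Hep_3D, against 22.4% and 24.8% in Bil_2D. Changes were also computed after dividing by median-of-ratios size factors (called the size-factor scale here), where the median gene stood at -0.02, and the plot of fold changes shows both scales for every member tested. Paired values marked "with size factors" in parentheses are the log2 fold change and its adjusted p on that scale. In bulk RNA, fewer cells of a type and less RNA per cell cannot be told apart.

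Calls among the cholesterol genes were more often higher than lower in Hep_3D, while over all genes lower calls prevailed for TPM. Of the 30 members tested, 10 rose and 5 fell, against 6.8% of all genes tested that rose and 51.9% that fell (58.7% in either direction). With size factors 14 rose and 1 fell, against 11.9% and 9.54% of all genes. The median log2 fold change of the members was 0.36 for TPM and 1.15 with size factors. Both Hep_3D libraries lay above both Bil_2D libraries for 14 members (11.1% of all genes) and below both for 6 (71.9% of all genes). With size factors those numbers were 23 (33.6%) and 3 (34.7%). With any 1 library dropped, fewer members rose than in the full fit and no more fell, for TPM and with size factors alike. Fewer of all genes rose in those fits too, so the loss of calls is not particular to the members.

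**Figure D1:**
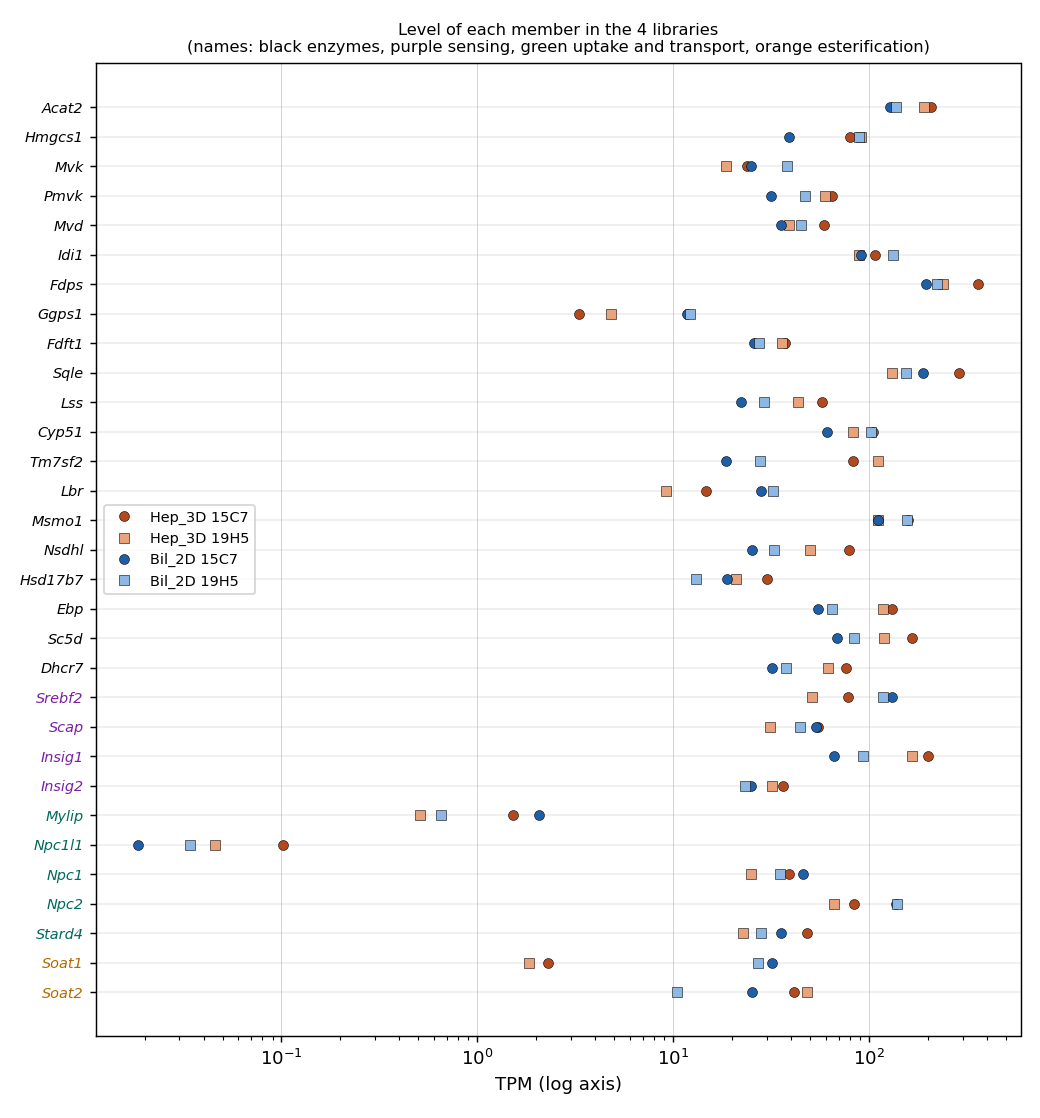
TPM of the 31 members (horizontal log axis) in each library, with 1 point per library and genes in pathway order. Soat1, Ggps1 and Lbr are lower in both Hep_3D libraries, Tm7sf2 and Insig1 are higher in both, and Npc1l1 is at or below 0.102 TPM.

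**Figure D2:**
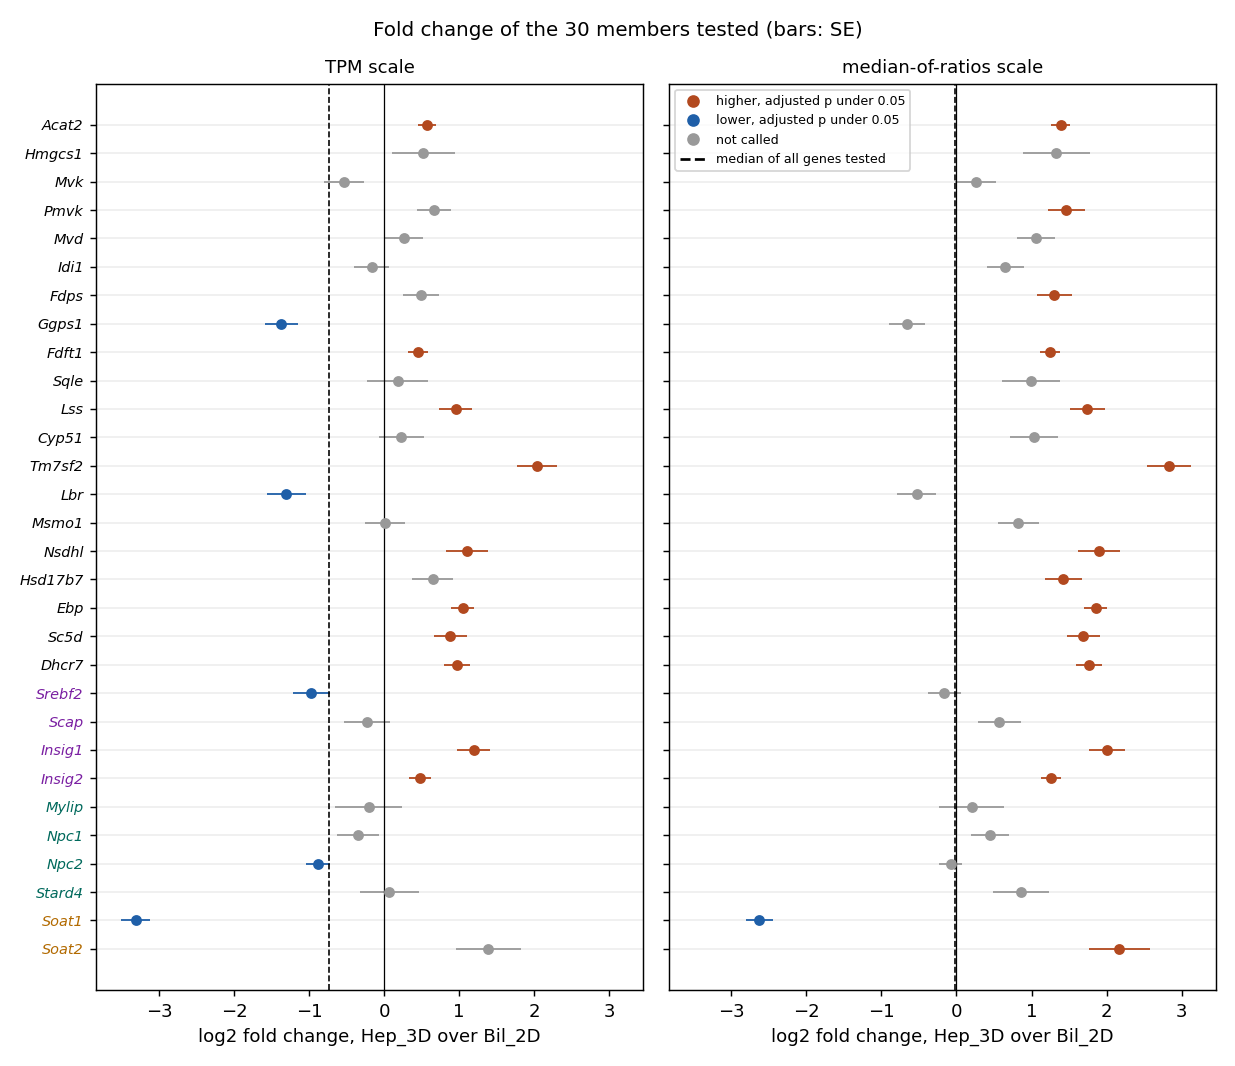
Log2 fold change of the 30 members tested, Hep_3D over Bil_2D, with its SE (n = 2 per group), on the TPM scale (left) and the median-of-ratios scale (right). Dashed lines mark the median of all genes tested, at -0.73 and -0.02, and most members lie to the right of it in both panels.

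Promoters are printed for 6 members called in the same direction on both scales, those with the smallest adjusted p, since their state difference does not rest on the choice of scale. RefSeq windows on GRCm38.p6, the mm10 assembly, run from 250 bases before to 50 after a listed start, and 25 members had 31 such windows. Fdps, Fdft1, Sqle, Npc1, Stard4 and Soat2 had none. Capitals mark CCAAT (the core of the NF-Y site), GGGCGG (the GC box that Sp1 binds) and CACGTG (the E-box), each searched by itself on both strands, so that matches of different motifs may overlap. The windows lie at chr1:156474279-156474578 on the minus strand for Soat1, chr19:6067801-6068100 on the minus strand for Tm7sf2 and chrX:8193463-8193762 on the minus strand for Ebp. They lie at chr7:143822917-143823216 on the plus strand for Dhcr7 (the first of 3 windows), chr5:28071162-28071461 on the plus strand for Insig1 and chr17:12960676-12960975 on the minus strand for Acat2.
Soat1: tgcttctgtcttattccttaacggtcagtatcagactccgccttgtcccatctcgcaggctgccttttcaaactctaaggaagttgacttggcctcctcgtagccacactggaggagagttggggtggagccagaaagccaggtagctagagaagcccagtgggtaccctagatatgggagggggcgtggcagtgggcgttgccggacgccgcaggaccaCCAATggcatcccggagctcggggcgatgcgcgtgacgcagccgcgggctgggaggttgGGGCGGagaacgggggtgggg
Tm7sf2: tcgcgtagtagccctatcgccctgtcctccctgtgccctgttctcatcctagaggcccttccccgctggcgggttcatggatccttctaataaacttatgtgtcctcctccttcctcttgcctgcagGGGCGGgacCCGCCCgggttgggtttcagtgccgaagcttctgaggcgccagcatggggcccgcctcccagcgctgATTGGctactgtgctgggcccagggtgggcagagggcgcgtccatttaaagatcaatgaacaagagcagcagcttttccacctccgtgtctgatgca
Ebp: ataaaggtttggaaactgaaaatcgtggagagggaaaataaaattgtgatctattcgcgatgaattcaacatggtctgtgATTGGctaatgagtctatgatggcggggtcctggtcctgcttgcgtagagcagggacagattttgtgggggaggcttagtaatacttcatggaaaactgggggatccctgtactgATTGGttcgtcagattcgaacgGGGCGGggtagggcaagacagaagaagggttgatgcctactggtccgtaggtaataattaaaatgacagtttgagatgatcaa
Dhcr7: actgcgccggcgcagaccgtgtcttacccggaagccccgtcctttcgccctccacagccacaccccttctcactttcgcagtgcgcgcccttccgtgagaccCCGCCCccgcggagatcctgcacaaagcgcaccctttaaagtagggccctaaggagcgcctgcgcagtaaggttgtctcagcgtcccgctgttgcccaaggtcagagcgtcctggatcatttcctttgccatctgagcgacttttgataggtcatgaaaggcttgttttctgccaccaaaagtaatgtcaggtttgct
Insig1: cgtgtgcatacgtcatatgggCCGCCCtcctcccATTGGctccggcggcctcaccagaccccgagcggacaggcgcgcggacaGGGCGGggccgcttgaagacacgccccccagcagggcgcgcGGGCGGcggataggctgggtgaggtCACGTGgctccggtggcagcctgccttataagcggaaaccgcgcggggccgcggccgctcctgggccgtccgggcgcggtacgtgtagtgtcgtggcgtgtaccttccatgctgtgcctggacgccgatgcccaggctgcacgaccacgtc
Acat2: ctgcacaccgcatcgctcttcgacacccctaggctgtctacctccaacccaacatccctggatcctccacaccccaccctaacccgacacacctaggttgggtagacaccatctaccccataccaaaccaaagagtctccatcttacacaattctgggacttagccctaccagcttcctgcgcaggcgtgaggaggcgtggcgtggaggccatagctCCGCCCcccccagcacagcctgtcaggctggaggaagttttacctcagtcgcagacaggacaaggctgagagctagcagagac

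CCAAT stood in 23 of the members' 31 windows (74.2%), against 38.5% of the 12154 windows of genes tested and 37.4% of all 32851 windows. The GC box stood in 80.6% of the members' windows, against 62.6% of those of genes tested and 35.7% of all. CACGTG stood in 19.4% of the members' windows, against 10.2% and 7.15%. The SREBP site TCACNCCAC stood in 1 member window, that of Hmgcs1 (3.23%, against 1.2% and 1.24%). Among the printed windows, CCAAT stood at -30 from the start in Soat1, at -47 in Tm7sf2 and at -216 in Insig1. In Ebp it stood at -170 and -55, and the printed windows of Dhcr7 and Acat2 held none. Window 3 of Dhcr7, which is not printed, held CCAAT at -85 and -49. The E-box stood in the printed window of Insig1, at -101. A match describes letters only and is no evidence of binding.

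Between acetyl-CoA and the isoprenoids, Acat2 was the 1 enzyme that rose on the TPM scale. Acat2, the cytosolic thiolase that joins acetyl-CoA units, had 205 and 190.1 TPM in Hep_3D, against 128 and 137 TPM in Bil_2D. The groups did not overlap, at 198 ± 10.8 TPM in Hep_3D and 132 ± 6.48 TPM in Bil_2D (SD, n = 2 each; limma log2 fold change 0.57, SE 0.12, adjusted p = 0.0201; 1.39 and 0.00918 with size factors). Each of the 4 fits with a library left out lost the call (limma adjusted p = 0.0611 to 0.0982). Acat3, a near-identical copy of Acat2 that was named after its values were seen, had 143 and 206 TPM in Hep_3D, against 13.98 and 10.1 TPM in Bil_2D, and how reads were divided between both is uncertain.

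Hmgcs1, which makes HMG-CoA, had 79.99 and 90.6 TPM in Hep_3D, against 38.8 and 89.1 TPM in Bil_2D. The 19H5 library of Bil_2D reached the Hep_3D range, and the test was not passed (adjusted p = 0.33; 0.0471 without that library; 1.33 and 0.107 with size factors). Mvk, the mevalonate kinase, had 23.8 and 18.6 TPM in Hep_3D, against 25.01 and 37.9 TPM in Bil_2D, lower in both Hep_3D libraries without passing (adjusted p = 0.147; 0.25 and 0.542 with size factors). Pmvk, the phosphomevalonate kinase that follows, had 64.3 and 59.3 TPM in Hep_3D, against 31.5 and 47.1 TPM in Bil_2D. The groups did not overlap, and Pmvk passed with size factors only (log2 fold change 1.47, adjusted p = 0.028; 0.67 and 0.0655 for TPM). Mvd, which decarboxylates the product, had 58.8 and 39.1 TPM in Hep_3D, against 35.6 and 44.6 TPM in Bil_2D. Idi1, the isopentenyl diphosphate isomerase, had 108 and 88.8 TPM in Hep_3D, against 90.8 and 132 TPM in Bil_2D. The groups overlapped for Mvd and Idi1, and neither passed on either scale.

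At the farnesyl branch point Ggps1 fell for TPM, Fdps rose with size factors, and neither passed on both scales. Fdps, which makes farnesyl diphosphate, had 361 and 238 TPM in Hep_3D, against 196 and 222 TPM in Bil_2D. It passed with size factors only (log2 fold change 1.30, adjusted p = 0.0317; 0.49 and 0.145 for TPM). Ggps1, which lengthens farnesyl to geranylgeranyl diphosphate for protein prenylation, had 3.3 and 4.82 TPM in Hep_3D, against 11.7 and 12.1 TPM in Bil_2D. It fell, with both Hep_3D libraries below both Bil_2D libraries (log2 fold change -1.37, SE 0.22, adjusted p = 0.0108). With size factors the change was -0.66 (adjusted p = 0.124), and the TPM call was lost when either Bil_2D library was dropped (0.0624 and 0.0642).

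For TPM, the other enzymes that rose all act at squalene synthase or later. Fdft1, which commits farnesyl diphosphate to sterols, had 37.3 and 35.8 TPM in Hep_3D, against 25.7 and 27.3 TPM in Bil_2D (log2 fold change 0.45, SE 0.13, adjusted p = 0.0422; 1.24 and 0.012 with size factors). Sqle, the squalene epoxidase, had 285 and 131 TPM in Hep_3D, against 188 and 154 TPM in Bil_2D, so Hep_3D was the higher state in 15C7 and the lower in 19H5. Lss, which closes the sterol rings, had 57.4 and 43.4 TPM in Hep_3D, against 22.1 and 28.97 TPM in Bil_2D. It rose, with no overlap of the groups (log2 fold change 0.95, SE 0.22, adjusted p = 0.025; 1.74 and 0.017 with size factors). Fdft1 and Lss lost the call with any 1 library left out (adjusted p = 0.112 to 0.171 and 0.0523 to 0.109), and Fdft1 also without a trend in eBayes (0.0594).

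Both enzymes that can reduce the sterol double bond left by Cyp51 changed, in opposite directions on the TPM scale. Tm7sf2, the reductase of the endoplasmic reticulum, had 83.02 and 111 TPM in Hep_3D, against 18.5 and 27.7 TPM in Bil_2D. Lbr, the lamin B receptor of the inner nuclear membrane, has the same activity and had 14.6 and 9.13 TPM in Hep_3D, against 27.998 and 32.2 TPM in Bil_2D. Tm7sf2 rose (log2 fold change 2.04, SE 0.27, adjusted p = 0.00747), and 96.3% of all genes tested had a lower log2 fold change. Its call held with any 1 library left out (0.0339 to 0.0441). With size factors its change was 2.83 (adjusted p = 0.0109), where 1 of the 4 leave-out fits, that without Hep_3D replicate 1, kept the call (0.0486; 0.0615 to 0.0693 in the others). Lbr fell (log2 fold change -1.30, SE 0.26, adjusted p = 0.0171), stood at -0.53 with size factors (adjusted p = 0.211) and lost its TPM call when either Bil_2D library was dropped (0.0718 and 0.0888).

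The ratio of Tm7sf2 to Lbr within a library does not depend on scaling between libraries. It was 5.67 and 12.2 in Hep_3D, against 0.662 and 0.859 in Bil_2D. Tm7sf2 was the more abundant of the pair in both Hep_3D libraries and Lbr in both Bil_2D libraries. The exact two-sided permutation test gave p = 0.333, the smallest that 2 libraries against 2 allow.

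Among the remaining sterol enzymes, Nsdhl, Ebp, Sc5d and Dhcr7 rose and none fell, whereas Hsd17b7, Cyp51 and Msmo1 did not pass for TPM. Nsdhl, a dehydrogenase of sterol demethylation, had 79.2 and 49.9 TPM in Hep_3D, against 25.3 and 32.5 TPM in Bil_2D (log2 fold change 1.11, SE 0.28, adjusted p = 0.0302). Ebp, the sterol isomerase, had 131 and 117 TPM in Hep_3D, against 54.8 and 64.4 TPM in Bil_2D (log2 fold change 1.05, SE 0.15, adjusted p = 0.0084). In both genes the Hep_3D libraries lay wholly above the Bil_2D libraries. Sc5d, the desaturase that follows Ebp, had 166 and 119 TPM in Hep_3D, against 68.4 and 83.4 TPM in Bil_2D (log2 fold change 0.88, SE 0.22, adjusted p = 0.0291). Dhcr7, a reductase at the end of the pathway, had 76.2 and 61.7 TPM in Hep_3D, against 31.9 and 37.4 TPM in Bil_2D (log2 fold change 0.97, SE 0.17, adjusted p = 0.0131). These groups did not overlap either, and the 4 genes also passed with size factors, with changes of 1.69 to 1.90. With size factors, each of these genes lost its call when any 1 library was left out, with changes of 1.48 to 2.20. Ebp lost its TPM call without Bil_2D replicate 1, where its change was 0.93. Nsdhl, Sc5d and Dhcr7 kept theirs only without Hep_3D replicate 2 (adjusted p = 0.0544 to 0.132 in the other leave-out fits), and Nsdhl lost it with no filter (0.0535).

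Hsd17b7, the ketosteroid reductase that works with Nsdhl, had 30.2 and 20.8 TPM in Hep_3D, against 18.7 and 13.1 TPM in Bil_2D. It did not pass for TPM (log2 fold change 0.65, SE 0.28, adjusted p = 0.106), but it did once clone was a replicate block (0.0214) and with size factors (0.0296). Its change was 0.66 in 15C7 and 0.63 in 19H5. Cyp51, the lanosterol demethylase, had 104 and 82.3 TPM in Hep_3D, against 60.7 and 102 TPM in Bil_2D. Msmo1, the methylsterol oxidase, had 158 and 111 TPM in Hep_3D, against 110.3 and 156 TPM in Bil_2D. For TPM the groups overlapped for Cyp51 and Msmo1, with log2 fold changes of 0.23 and 0.01 (adjusted p = 0.542 and 0.975), and of 1.04 and 0.82 with size factors (adjusted p = 0.0884 and 0.105).

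Summed over the 20 enzymes, the pathway held 2125 and 1622 TPM in Hep_3D, against 1210 and 1481 TPM in Bil_2D. The means were 1873 ± 356 TPM in Hep_3D and 1346 ± 192 TPM in Bil_2D (SD, n = 2 each), a log2 ratio of 0.48 (exact two-sided permutation p = 0.333). It was 0.81 in 15C7, 0.13 in 19H5 and 1.29 with size factors. The log2 ratio was 0.58 for the 12 enzymes from Fdft1 to Dhcr7 and 0.29 for the 6 from Acat2 to Idi1, whose sums overlapped between states, and 1.39 and 1.10 with size factors. By gene, 8 of the 20 rose and 2 fell, where 6.8% and 51.9% of all genes did. With size factors 11 rose and 0 fell, where 11.9% and 9.54% of all genes did. With any 1 library dropped, fewer of the 20 rose than in the full fit and no more fell, for TPM and with size factors alike.

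For TPM the 4 sensor genes differed in direction, as 2 rose and 1 fell (all genes: 6.8% and 51.9%). With size factors 2 rose and 0 fell (all genes: 11.9% and 9.54%). Insig1, a target of SREBP2 whose protein retains Scap, had 199 and 166 TPM in Hep_3D, against 66.1 and 93.4 TPM in Bil_2D. Both Hep_3D libraries exceeded both Bil_2D libraries, and Insig1 rose (log2 fold change 1.20, SE 0.22, adjusted p = 0.0137; 2.01 and 0.0139 with size factors). Of the leave-out fits, the 1 without Bil_2D replicate 2 kept the call (0.0448), and the others gave 0.052 to 0.0671. Insig2, its paralog with the same retaining role, had 36.3 and 31.8 TPM in Hep_3D, against 24.95 and 23.3 TPM in Bil_2D. It rose (log2 fold change 0.48, SE 0.15, adjusted p = 0.0482; 1.27 and 0.0114 with size factors). The TPM call was lost in each leave-out fit (0.0886 to 0.178), with no filter (0.06) and without a trend (0.0634). The ratio of Insig1 to Insig2 was 5.47 and 5.22 in Hep_3D, against 2.65 and 4.003 in Bil_2D (exact two-sided permutation p = 0.333).

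Srebf2, which encodes the transcription factor of the pathway, had 77.7 and 50.8 TPM in Hep_3D, against 131 and 117 TPM in Bil_2D. It fell (log2 fold change -0.97, SE 0.24, adjusted p = 0.0288), while its change with size factors was -0.16 (adjusted p = 0.639). The TPM call was kept only without Hep_3D replicate 1 (0.032), with 0.0624 to 0.126 in the other leave-out fits and 0.0501 with no filter. Scap, the escort of SREBP2, had 54.6 and 31.2 TPM in Hep_3D, against 53.3 and 44.4 TPM in Bil_2D. Its groups overlapped (adjusted p = 0.548; 0.57 and 0.221 with size factors).

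**Figure D3:**
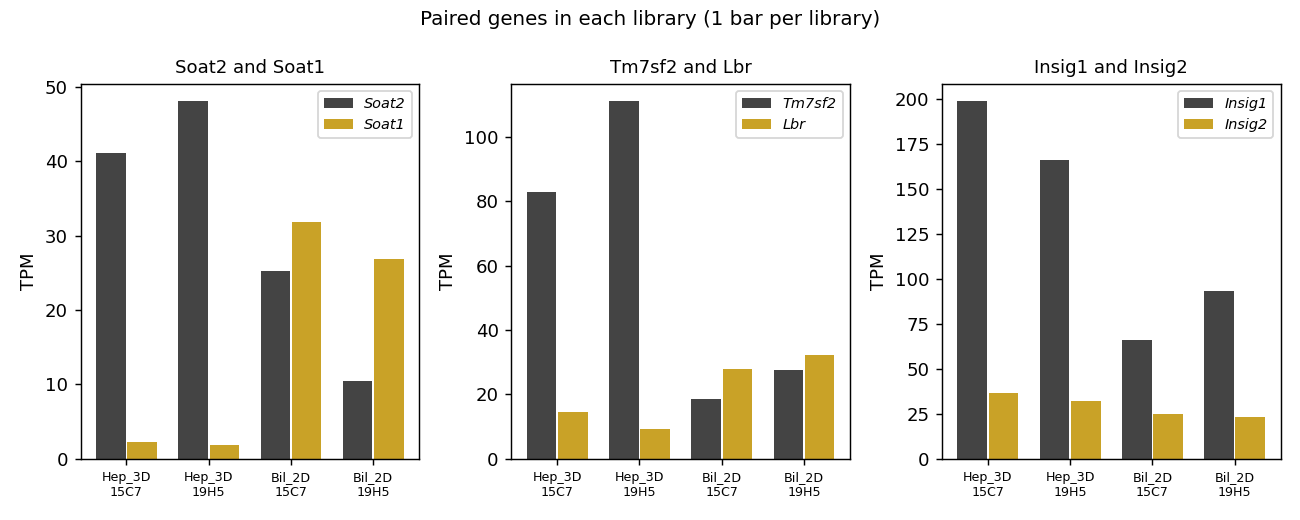
TPM of Soat2 and Soat1, Tm7sf2 and Lbr, and Insig1 and Insig2 (vertical axes from 0), with 1 bar per gene and library. The first gene of each pair is the more abundant in both Hep_3D libraries, and Soat1 and Lbr exceed their partners in both Bil_2D libraries.

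The esterification genes had the most negative log2 fold change of the 30 members, in Soat1, and the second most positive, in Soat2. Soat1, the acyltransferase found in most cell types, had 2.29 and 1.84 TPM in Hep_3D, against 31.8 and 26.9 TPM in Bil_2D. Soat2, the acyltransferase of hepatocytes and enterocytes, had 41.1 and 48.03 TPM in Hep_3D, against 25.2 and 10.5 TPM in Bil_2D. In neither gene did the groups overlap. Soat1 fell (log2 fold change -3.31, SE 0.19, adjusted p = 0.00354), and 1.09% of all genes tested had a lower value. The call held with any 1 library left out (0.0291 to 0.039). With size factors the change was -2.63 (adjusted p = 0.00464), and that call was lost when either Bil_2D library was dropped (0.0642 and 0.0662). Soat2 did not pass for TPM (log2 fold change 1.39, SE 0.43, adjusted p = 0.0506). It passed with size factors (2.17, adjusted p = 0.0337), with a pseudocount of 5 (0.0447) and with a filter of 5 TPM (0.0425). It did not pass with clone as a replicate block (0.0538), with no filter (0.0879) or without a trend (0.0564). With a library left out, its change for TPM ranged from 0.79 to 1.98.

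The ratio of Soat1 to Soat2 was 0.0558 and 0.0382 in Hep_3D, against 1.26 and 2.57 in Bil_2D. On the log2(TPM + 1) scale it differed by -4.69 between states (exact two-sided permutation p = 0.333), by -3.996 within 15C7 and by -5.39 within 19H5. Soat2 was the more abundant in both Hep_3D libraries and Soat1 in both Bil_2D libraries.

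Among the genes of uptake and transport, 1 of 4 tested fell, Npc2, and 0 rose for TPM (all genes: 51.9% and 6.8%). With size factors 0 fell and 0 rose (all genes: 9.54% and 11.9%). For TPM, 40.5% of all genes tested had a lower log2 fold change than Npc2. Npc2, which hands cholesterol to Npc1 inside lysosomes, had 83.2 and 65.9 TPM in Hep_3D, against 137 and 138 TPM in Bil_2D (log2 fold change -0.88, SE 0.16, adjusted p = 0.0133). With size factors its change was -0.08 (adjusted p = 0.752), and the TPM call was lost when either Bil_2D library was dropped (0.0705 and 0.0692). Npc1, the membrane partner, had 39.1 and 24.99 TPM in Hep_3D, against 45.8 and 34.98 TPM in Bil_2D. Stard4, a cytosolic sterol carrier, had 47.9 and 22.7 TPM in Hep_3D, against 35.3 and 28.02 TPM in Bil_2D. The groups overlapped for both, with log2 fold changes of -0.35 for Npc1 and 0.07 for Stard4, and 0.45 and 0.86 with size factors, none of which passed. Mylip, the ubiquitin ligase that sends lipoprotein receptors to degradation, had 1.52 and 0.508 TPM in Hep_3D, against 2.07 and 0.649 TPM in Bil_2D, again with overlap. Npc1l1, an importer of sterol known from the intestine, had 0.102 and 0.0459 TPM in Hep_3D, against 0.0186 and 0.0342 TPM in Bil_2D, and was the only member under the filter.

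The state change was next taken within each clone, with 1 library per state and so no test. Within 15C7 the median change of the 30 members was 0.63, and 22 were higher in Hep_3D (17.4% of all genes). Within 19H5 the median was -0.05, and 15 were higher (18.2% of all genes). The median of all genes was -0.74 in 15C7 and -0.72 in 19H5. With size factors the members' medians were 1.44 and 0.71. Hep_3D was the higher state in both clones for 15 members (13.3% of all genes), the lower in both for 8 (77.5%) and differed in direction for 7 (8.88%). With size factors these were 24 (40.4%), 3 (41.9%) and 3 (17.4%).

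For 19 of the 20 enzymes the change was more positive in 15C7 than in 19H5, against 48.2% of all genes, and Ggps1 was the exception. In Hep_3D, 15C7 exceeded 19H5 for 17 of the 20 enzymes (57.4% of all genes). In Bil_2D it did so for 2 of the 20 (59.5% of all genes). The enzyme counts were equal with size factors, where the shares of all genes were 51.5%, 52.1% and 50.6%. Hmgcs1 changed by 1.02 in 15C7 and by 0.02 in 19H5, and Cyp51 by 0.77 in 15C7 and -0.31 in 19H5. Tm7sf2 changed by 2.11 in 15C7 and 1.97 in 19H5, and Soat1 by -3.32 and -3.30. Soat2 had the larger change in 19H5, at 0.68 in 15C7 and 2.09 in 19H5. Enzymes of 1 pathway share these libraries and are not independent of each other. The 15C7 Hep_3D library is also the one with the higher fibroblast and stellate marker sum, whose part here was not tested. Dcn gave 178 of its 179.6 TPM, and the next marker, Col1a1, stood at 1.17 TPM. State markers differed between the clones as well, and their part was not tested either. In Bil_2D the hepatocyte markers summed to 1693 TPM in 15C7 and 281 TPM in 19H5, with 7 of 8 higher in 15C7. In Hep_3D, Krt19 stood at 1.12 TPM in 15C7 and 15.9 TPM in 19H5. There, 4 of the 8 biliary markers tested were higher in 15C7.

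**Figure D4:**
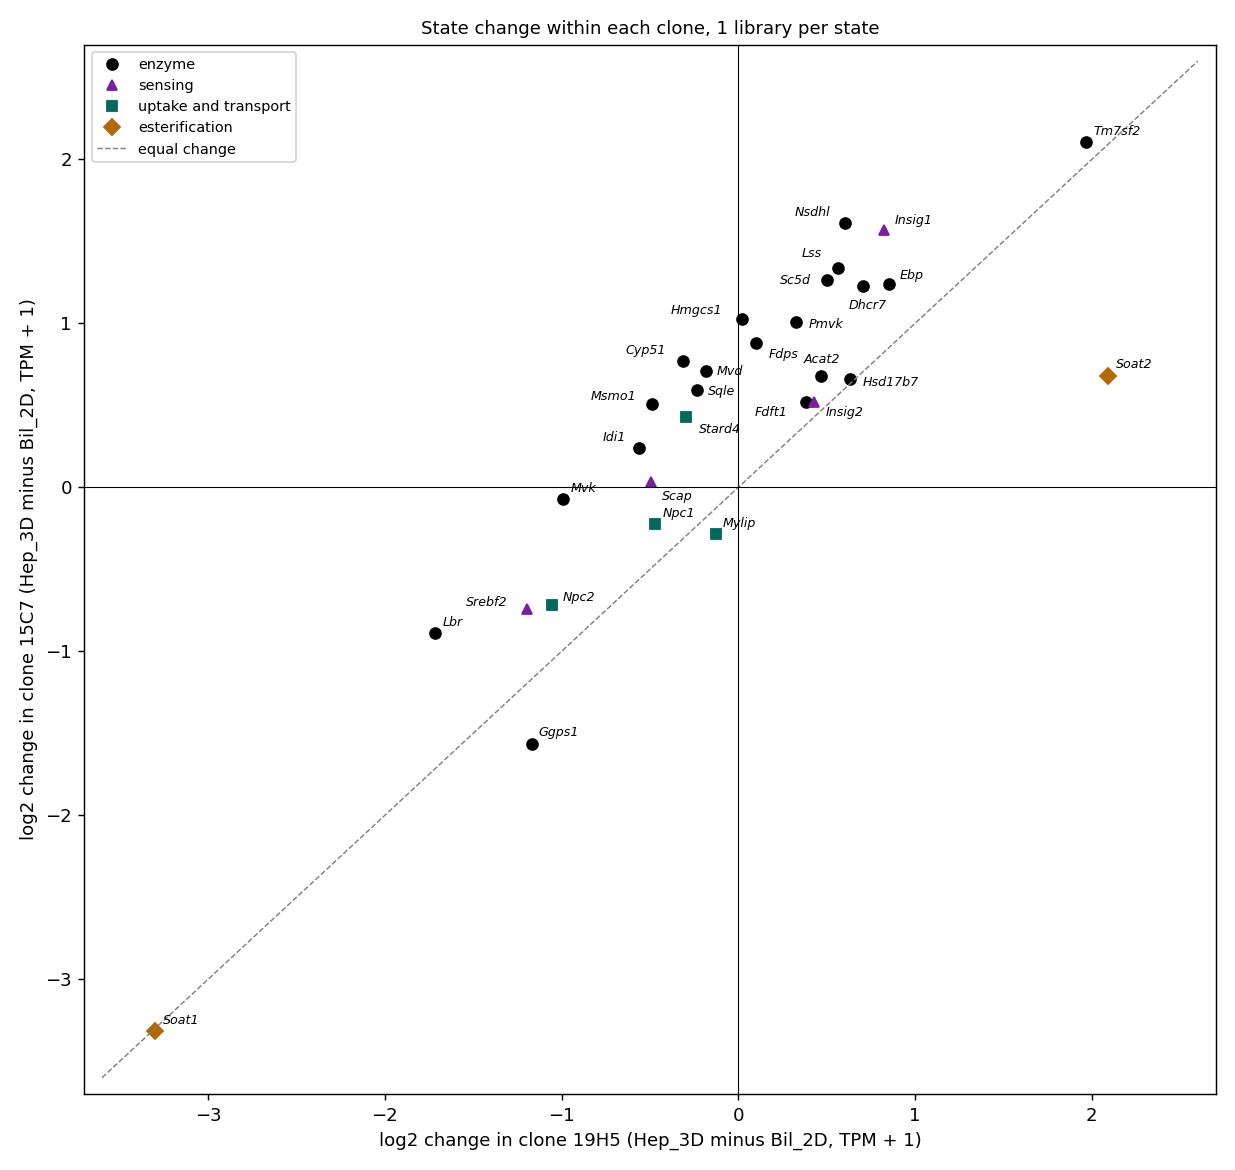
Log2 change, Hep_3D minus Bil_2D, of the 30 members tested in clone 15C7 (vertical axis) and clone 19H5 (horizontal axis), on the TPM scale with 1 library per state. All enzymes but Ggps1 lie above the dashed line of equal change, Soat1 lies close to it and Soat2 lies below it.

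Genes around the pathway were followed in 6 lists. Fits with a library left out are given for TPM only, in the order Hep_3D replicates 1 and 2, then Bil_2D replicates 1 and 2. In each of them fewer of all genes rose and fewer fell than in the full fit. In the isoprenoid branches, 6 of 9 fell and 0 rose for TPM, near the 51.9% of all genes that fell. The median log2 fold change was -0.74, close to that of all genes. With size factors 1 fell and 0 rose (9.54% and 11.9% of all genes). With each library left out in that same order, 0, 0, 0 and 0 rose and 3, 3, 2 and 1 fell. Pdss1, which builds the coenzyme Q side chain, had 3.23 and 2.73 TPM in Hep_3D, against 13.2 and 14.7 TPM in Bil_2D and fell on both scales (-1.91 and -1.21). Rabggtb, a subunit of the enzyme that prenylates Rab proteins, had 39.1 and 47.6 TPM in Hep_3D, against 83.6 and 106 TPM in Bil_2D (-1.11, adjusted p = 0.0117; -0.30 and 0.361 with size factors). Fntb and Fnta, the subunits of farnesyltransferase, fell by 1.04 and 0.77 (adjusted p = 0.039 and 0.0101) for TPM, and not with size factors.

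In SREBP processing and sterol-regulated degradation, 1 of 12 rose and 3 fell for TPM (all genes: 6.8% and 51.9%), against 5 and 0 with size factors (all genes: 11.9% and 9.54%). With each library left out in that same order, 1, 0, 0 and 0 rose and 2, 2, 1 and 2 fell. Mbtps2 and Mbtps1, the proteases that release SREBPs, fell by 1.37 and 0.45 (adjusted p = 0.00737 and 0.039). Mbtps2 had 5.7 and 5.08 TPM in Hep_3D, against 16.5 and 14.4 TPM in Bil_2D. Erlin2 and Erlin1 form a complex of the endoplasmic reticulum that takes part in sterol-regulated degradation. Erlin2 had 21.8 and 21.1 TPM in Hep_3D, against 56.1 and 50.6 TPM in Bil_2D and fell by 1.27 (adjusted p = 0.00599). Erlin1 had 31.5 and 43.6 TPM in Hep_3D, against 23.5 and 22.3 TPM in Bil_2D and rose (0.67, adjusted p = 0.0459). The falls of Mbtps2, Mbtps1 and Erlin2 did not pass with size factors (adjusted p = 0.0613, 0.121 and 0.0643).

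In the list of LXR and efflux genes, 5 of 7 tested rose and 2 fell for TPM (all genes: 6.8% and 51.9%), against 4 and 0 with size factors (all genes: 11.9% and 9.54%). With each library left out in that same order, 3, 3, 5 and 4 rose and 0, 0, 0 and 0 fell. Abca1, the exporter that loads high-density lipoprotein, had 51.4 and 35.8 TPM in Hep_3D, against 4.2 and 0.885 TPM in Bil_2D (log2 fold change 3.81, SE 0.55, adjusted p = 0.00862; 4.47 and 0.0122 with size factors). Abcg5 and Abcg8 form the transporter that moves sterol into bile. Abcg5 had 9.62 and 7.97 TPM in Hep_3D, against 0.299 and 0 TPM in Bil_2D, where the last is listed at 0 (adjusted p = 0.00503). Abcg8 had 8.64 and 6.52 TPM in Hep_3D, against 0.259 and 0.0797 TPM in Bil_2D (log2 fold change 2.87, SE 0.24, adjusted p = 0.00513; 3.28 and 0.00491 with size factors). Apoe, a ligand of lipoprotein receptors, had 18976 and 12117 TPM in Hep_3D, against 1922 and 104 TPM in Bil_2D (log2 fold change 5.07, SE 1.45, adjusted p = 0.0408) and did not pass with size factors (adjusted p = 0.0553). Apoe also missed the threshold for TPM when either Hep_3D library was dropped (0.156 and 0.132).

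In intracellular sterol transport and ester hydrolysis, 1 of 11 rose and 1 fell for TPM (all genes: 6.8% and 51.9%), against 5 and 0 with size factors (all genes: 11.9% and 9.54%). The leave-out fits, in the same order, gave 1, 1, 1 and 1 that rose and 1, 0, 0 and 0 that fell. Scp2, the sterol carrier of peroxisomes, had 402 and 472 TPM in Hep_3D, against 127 and 88.1 TPM in Bil_2D and rose (2.04, adjusted p = 0.00609; 2.85 and 0.00574 with size factors). Nceh1, a hydrolase of cholesteryl esters, had 7.26 and 5.12 TPM in Hep_3D, against 17.7 and 14.9 TPM in Bil_2D and fell (-1.28, adjusted p = 0.0129). With size factors Nceh1 did not pass (0.143).

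Among oxysterol enzymes, 2 of 6 rose and 1 fell for TPM (all genes: 6.8% and 51.9%), against 3 and 1 with size factors (all genes: 11.9% and 9.54%). For TPM 2 fell once clone was a replicate block. The leave-out fits, in the same order, gave 2, 2, 1 and 1 that rose and 1, 2, 1 and 1 that fell. Cyp27a1, the sterol hydroxylase of mitochondria, had 44.997 and 58.1 TPM in Hep_3D, against 6.77 and 11.3 TPM in Bil_2D (log2 fold change 2.41, SE 0.29, adjusted p = 0.00685; 3.17 and 0.00981 with size factors). Cyp39a1, an oxysterol hydroxylase, had 74.3 and 157 TPM in Hep_3D, against 32.6 and 35.2 TPM in Bil_2D (log2 fold change 1.64, SE 0.38, adjusted p = 0.0246; 2.44 and 0.0269 with size factors). Ch25h, which makes 25-hydroxycholesterol, had 0 and 0.181 TPM in Hep_3D, against 3.47 and 4.71 TPM in Bil_2D, where the first is listed at 0, and fell (adjusted p = 0.00639).

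In lipoprotein uptake, 1 of 7 tested rose and 1 fell for TPM (all genes: 6.8% and 51.9%), against 2 and 0 with size factors (all genes: 11.9% and 9.54%). For TPM with the replicate block 2 rose and 2 fell. The leave-out fits, in the same order, gave 1, 1, 2 and 1 that rose and 2, 1, 0 and 0 that fell. Cd36, a scavenger receptor that also takes up fatty acids, had 28.4 and 55.5 TPM in Hep_3D, against 0.357 and 3.16 TPM in Bil_2D (log2 fold change 4.10, SE 0.66, adjusted p = 0.0104; 4.69 and 0.0172 with size factors). Lrp8, a receptor of apolipoprotein E, had 3.005 and 1.17 TPM in Hep_3D, against 5.83 and 6.34 TPM in Bil_2D and fell (-1.27, adjusted p = 0.039), but not with size factors (0.271).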

How the data were processed

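Total RNA of the 4 cultures was sequenced, with purification on Qiagen RNeasy columns and library preparation at Novogene, per the labels' protocols. The values are the authors' deposited table of TPM, which sum to 1000000 in each library, so depth and counting error are unknown. Salmon, DESeq2 and mm10 appear in the submitters' processing notes without version or role. The gene annotation is not given in the sources used here.

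limma 3.58.1 in R 4.3.3 was run on log2(TPM + 1) for 12336 genes, kept where 2 or more libraries reached 1 TPM, using eBayes with a trend (2 residual and 2.29 prior degrees of freedom) and Benjamini-Hochberg adjustment across all of them. This scale understates the change of low genes. The size-factor scale divides TPM by median-of-ratios factors taken from genes at 1 TPM or more throughout, which differed by 0.82 log2 units between states. Other pseudocounts, filters and scalings, eBayes without a trend, clone as a replicate block and fits leaving out each library were tried. In those last fits the lone library of a state is assumed to be as variable as the other state's. Replicate numbers pair the libraries because the labels give same-numbered samples the same clone; across genes, the deviations of 15C7 and 19H5 libraries had a same-clone correlation of 0.414. The fit was also run on simulated data, with independent libraries and the same spread for every gene. That setting leaves out the same-clone correlation, so the run checks the code and not the calls made here.

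Members and lists were chosen with earlier results of these data known. All members are named, and from each related list up to 4 genes called on the TPM scale, by size of change. Promoters were taken from members called alike on both scales, at most 6, by adjusted p. Overlapping genes are uncertain, since no source says whether counting used strand. Fdft1 overlaps Ctsb by 774 bases, Npc1 overlaps Rmc1 by 8982 and Tm7sf2 overlaps Vps51 by 9. Acat2 overlaps the pseudogene Gm20591 by 634 bases, and Mvd, Lss, Insig1, Fdps, Fdft1 and Srebf2 overlap non-coding genes.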

Additional observations from a re-analysis of the deposited data

Results flagged for a closer look

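For 7 members, Hep_3D was the higher state within clone 15C7 and the lower within clone 19H5 on the TPM scale, and they were marked for that opposite direction. The difference between clones was not tested, because each clone gave 1 library per state. The change in 15C7 exceeded that in 19H5, in log2(TPM + 1), by 0.90 for Mvd, 0.80 for Idi1, 0.83 for Sqle, 1.08 for Cyp51, 1.001 for Msmo1, 0.53 for Scap and 0.72 for Stard4. The clones differed in direction for 8.88% of all genes tested. With size factors each of these 7 was higher in Hep_3D within both clones. The 3 members that differed in direction on that scale were Mvk (0.72 in 15C7 and -0.21 in 19H5), Srebf2 (0.08 in 15C7 and -0.40 in 19H5) and Npc2 (0.11 in 15C7 and -0.26 in 19H5) (17.4% of all genes), and that difference was not tested either.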

How the results depend on the processing

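Of the 30 members tested, Soat1 and Tm7sf2 kept their TPM call with each library left out. Over the fits with 1 library left out, for TPM and with size factors, 0 to 5 members rose and 0 to 5 fell, and over all genes 168 to 595 rose and 20 to 3950 fell. Against 839 that rose and 6402 that fell for TPM, the counts over all genes were 1465 and 1177 with size factors, 1744 and 1449 with size factors and the replicate block, and 1349 and 1755 with quantile normalization. In those 3 settings 1 member fell, Soat1. The median change within 15C7 was 1.44 with size factors and 1.26 with quantile normalization. Within 19H5 it turned positive, at 0.71 and 0.55. Members that turned from below to above 0 with size factors, with or without the block, were Mvk (0.25), Idi1 (0.65), Scap (0.57), Mylip (0.21) and Npc1 (0.45). With quantile normalization they were Mvk (0.17), Idi1 (0.47), Scap (0.44), Mylip (0.12) and Npc1 (0.34). These shifts follow from the scaling, which moves the median of all genes. With a library left out, some members changed sign in at least 1 fit against the full fit of that scale, and the cause was not tested. Over both scales together, the ranges were -0.027 to 1.33 for Mvd, -0.38 to 1.53 for Sqle and -0.24 to 1.11 for Msmo1. They were -0.45 to 1.36 for Stard4, -0.62 to 0.94 for Scap, -0.66 to 0.61 for Mylip and -0.065 to 1.95 for Hmgcs1. For Cyp51 the range was -0.14 to 1.44, for Idi1 -0.43 to 0.95 and for Mvk -0.82 to 0.58. For Srebf2 it was -1.27 to 0.12 and for Npc2 -1.05 to 0.065. Npc1 stayed below 0 in each such TPM fit (-0.66 to -0.033) and above 0 in each with size factors (0.16 to 0.74). The replicate block changed the call of Hsd17b7 and of no other member. The median of the members minus that of all genes, 1.09 for TPM, was 0.65 to 1.34 over the alternatives. Without read counts, the precision of low values such as those of Npc1l1 and Mylip is unknown.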
